A study of Homo sapiens with 5 samples.

Results

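Transcripts of the cytosolic ribosomal protein genes were followed in HCT116 cells, an established line from a human colorectal carcinoma, after small interfering RNA (siRNA) knockdown of the transcription factors SP1 and SP3. The members are every symbol that reads RPL or RPS, a number and an optional A or X, with the stalk genes RPLP0, RPLP1 and RPLP2 and with RPSA. There were 77 of them among the 20030 symbols listed, 31 of the small subunit and 46 of the large subunit. Paralogues whose symbols end in L or L1, and FAU and RACK1, whose products also sit in the ribosome, fall outside this choice. The groups were SP1 knockdown (1 library), SP3 knockdown (1 library), SP1 and SP3 knockdown together (1 library) and control (2 libraries), all in the same cell line and all from total RNA. The labels give no siRNA sequence, dose or time, and no separate culture for each control.

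The ribosome is the machine that translates messenger RNA. Its small subunit decodes the message, and its large subunit joins amino acids and releases the chain through an exit tunnel. Ribosomal proteins are needed in near-equal numbers, and their messages begin with a run of pyrimidines (the 5′ TOP motif) through which mTOR signalling and the RNA-binding protein LARP1 control their translation together. SP1 and SP3 are zinc finger proteins of one family that bind the GC box, a GC-rich promoter element. HCT116 cells carry normal p53, and free RPL5 and RPL11, bound to 5S ribosomal RNA, inhibit MDM2, the ligase that degrades p53.

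Depth was even, with 14678068 to 15970519 counted reads per library. Levels are in FPKM, fragments per kilobase of transcript scaled to a fixed library total, and each library had 10654 to 11232 genes at 1 FPKM or above. SP1 transcript stood at 15.8 FPKM with SP1 knocked down, 27.5 FPKM with SP3 knocked down and 16.1 FPKM with both, against 36.6 and 37.2 FPKM in the controls. SP1 transcript was thus lower in all 3 knockdown libraries, the SP3 one included (−0.41, limma adjusted p = 0.000165). SP3 transcript stood at 14.3, 5.42 and 6.67 FPKM in the same libraries, against 13.3 and 13.0 FPKM in the controls. Of the epithelial markers, KRT18 was lower in all 3 knockdowns, at 408 FPKM with SP1 knocked down, 283.7 FPKM with SP3 knocked down and 153.5 FPKM with both, against 750.4 and 739.8 FPKM in the controls. CDH1 (−0.33, −0.24 and −0.33) and CDX2 (−0.46, −0.38 and −0.43) were lower as well. With the abundant KRT8 and KRT19, the epithelial markers EPCAM, KRT8, KRT18, KRT19, CDH1, VIL1 and CDX2 summed to 3554 to 4210.0 FPKM in the knockdown libraries and to 4011 and 4016 FPKM in the controls, with VIL1 at 0 in all 3 knockdown libraries and at 0.023 FPKM in the controls. A list of 7 leukocyte markers summed to 0.699 to 1.4 FPKM in the knockdown libraries, where 0 of 7 reached 1 FPKM and TYROBP, CD3E and MS4A1 were at 0. It summed to 22.9 and 23.0 FPKM in the controls, where 4 of 7 reached 1 FPKM. Erythroid markers summed to 0.0 to 1.34 FPKM with knockdown, against 2.26 and 2.63 FPKM in the controls. Fibroblast markers summed to 4.24 to 8.22 FPKM, against 8.86 and 8.93 FPKM, and endothelial markers to 0.139 to 0.236 FPKM, against 0.428 and 0.374 FPKM. Leukocyte transcripts were thus higher in both controls than in any knockdown library, and their part in the results was not tested.

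Ribosomal protein transcripts were among the most abundant. The median member stood at 1201 FPKM with SP1 knocked down, 1194 FPKM with SP3 knocked down and 1156 FPKM with both, against 1185 and 1199 FPKM in the controls. Between 44 and 47 of the 77 members reached 1000 FPKM in each library. Per length, the 5 highest by their mean were RPS18, RPS2, RPL12, RPLP1 and RPL37A. RPS2, which lines the entry of the messenger RNA channel, had 5081 FPKM with SP1 knocked down, 3205 FPKM with SP3 knocked down and 3815 FPKM with both, against 4097 and 3732 FPKM in the controls. The 77 members together took up 27.9% of all FPKM with SP1 knocked down, 24.0% with SP3 knocked down and 25.1% with both, against 26.1% in each control. Counted as reads recovered from the steps of the values, their share was 10.7% with SP1 knocked down (95% Wilson interval 10.68 to 10.71), 9.36% with SP3 knocked down (9.348 to 9.377) and 9.81% with both (9.792 to 9.823), against 9.84% (9.827 to 9.856) and 9.89% (9.873 to 9.902) in the controls. The SP1 library was thus above both controls and the SP3 library below both, by more than the controls differed. These intervals cover counting error only. A higher share in bulk RNA can mean more of these messages per cell or less of the other messages, and in bulk samples fewer cells of a type and less RNA per cell cannot be told apart.

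A total of 74 members were read 4183 to 73495 times per library, so their counting error was 0.369% to 1.55%. The other 3, RPS10, RPL36A and RPL17, were far lower and are described apart. FPKM divides by transcript length, and the lengths that the values imply ran from 382 bases for RPS28 to 9334 bases for RPL28, with 13 members above 2000 bases. After the 3 low members, RPS29 and RPL28 had the lowest mean FPKM, at 56.7 and 118 FPKM with SP1 knocked down. Over the 77 members, the log2 difference from the controls had a Spearman rank correlation with that length of 0.07 for SP1 knockdown, 0.13 for SP3 knockdown and −0.04 for both, given as a description across genes that share libraries.

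The promoters of 6 members that bracket the responses are shown here: RPL21 and RPS16 were the lowest with SP1 knocked down, and RPL11, RPL3, RPL14 and RPLP0 were among the highest. Each line gives the 200 bases before the annotated start and the first 10 transcribed bases, 5′ to 3′ on the gene's own strand, from RefSeq on GRCh38.p14. Capitals mark 5 elements. The GC box was searched as GGGCGG, with its reverse complement CCGCCC. The ETS site was searched as CCGGAAG, with its reverse complement CTTCCGG. The YY1 site was searched as AAGATGG, with its reverse complement CCATCTT. The TATA element was TATAAA on the gene's strand within 50 bases before the start. The pyrimidine start was a C at positions −1 to 3 followed by at least 5 pyrimidines. The elements may overlap. RPL11 has a further annotated start, and the downstream one is printed.
RPL21, chr13:27251358-27251567, plus strand: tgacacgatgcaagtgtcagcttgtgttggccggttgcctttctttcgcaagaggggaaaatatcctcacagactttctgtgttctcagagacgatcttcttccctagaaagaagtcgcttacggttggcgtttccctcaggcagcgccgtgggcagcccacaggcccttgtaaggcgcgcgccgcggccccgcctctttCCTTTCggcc
RPS16, chr19:39435940-39436149, minus strand: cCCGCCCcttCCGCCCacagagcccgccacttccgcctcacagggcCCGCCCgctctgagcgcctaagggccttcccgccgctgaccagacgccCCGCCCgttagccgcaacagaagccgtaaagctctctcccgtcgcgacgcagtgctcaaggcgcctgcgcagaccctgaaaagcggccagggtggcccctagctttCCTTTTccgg
RPL11, chr1:23691606-23691815, plus strand: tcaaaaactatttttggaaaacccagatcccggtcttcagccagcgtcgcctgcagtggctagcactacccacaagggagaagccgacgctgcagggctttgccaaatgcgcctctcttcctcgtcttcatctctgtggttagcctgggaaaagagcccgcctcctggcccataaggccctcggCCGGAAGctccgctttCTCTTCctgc
RPL3, chr22:39319614-39319823, minus strand: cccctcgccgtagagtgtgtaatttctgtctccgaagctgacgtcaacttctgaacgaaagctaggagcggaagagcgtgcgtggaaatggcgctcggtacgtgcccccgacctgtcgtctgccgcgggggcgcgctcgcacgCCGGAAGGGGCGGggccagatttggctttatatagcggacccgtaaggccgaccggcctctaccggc
RPL14, chr3:40457139-40457348, plus strand: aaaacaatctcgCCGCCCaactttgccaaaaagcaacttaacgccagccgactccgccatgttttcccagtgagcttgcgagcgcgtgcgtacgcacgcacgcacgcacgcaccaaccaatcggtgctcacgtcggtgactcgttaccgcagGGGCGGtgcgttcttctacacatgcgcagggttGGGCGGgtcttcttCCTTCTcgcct
RPLP0, chr12:120201102-120201311, minus strand: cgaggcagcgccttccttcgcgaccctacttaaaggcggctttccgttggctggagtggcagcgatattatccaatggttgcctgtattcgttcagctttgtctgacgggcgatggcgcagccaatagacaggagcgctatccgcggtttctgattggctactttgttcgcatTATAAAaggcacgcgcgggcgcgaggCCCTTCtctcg
Among these, RPS16 has 4 GC boxes within the window of 300 bases (250 before to 50 after the start) and RPL21 has 0, and both were lower with SP1 knocked down. RPL14 has 3, RPL3 has 1, and RPL11 and RPLP0 have 0, and all 4 were higher.

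RefSeq windows of 300 bases were found for 62 of the 77 members, some with more than 1 annotated start, which gave 77 member windows to set beside 35116 windows of all genes. A GC box, on either strand, was in 54.5% of member windows and in 45.0% of all windows. The ETS site on either strand was in 33.8% of member windows and in 10.3% of all windows, and the YY1 site in 10.4% and 5.84%. The pyrimidine start was in 61.0% of member windows and in 6.41% of all windows. TATAAA was in 2.6% and 2.63%, that is in RPLP0 and RPS28 among members. The 36 members with a GC box had a median log2 difference of 0.08 with SP1 knocked down, −0.06 with SP3 knocked down and −0.02 with both. The 26 members without one had medians of 0.06, −0.08 and −0.02. A match describes letters in a window and does not show that a factor binds there.

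The comparison of SP1 knockdown with control asks which of these messages change when SP1 is lowered. Most moved little, while a small set moved in opposite directions. RPL21 and RPS16 were far lower, and RPL11, RPS26, RPL6, RPL24 and RPL3 were higher. By limma on log2(FPKM + 1), 28 of 77 members were higher, beside 36.5% of all 11728 genes tested, and 9 were lower, beside 28.8% of all genes. The members called higher are 36.4% of the list, near the background, and those called lower 11.7%. The median member differed by 0.08, against 0.06 over all genes. In this comparison 48 of 77 members (62.3%) lay within 0.2 of the controls on the log2 scale, as did 29.4% of all genes tested and 27.6% of the 997 other genes that averaged 50 FPKM or more. Without a test, 10 members were at least 25% higher than each control, beside 27.5% of all genes, and 6 were at least 20% lower, beside 21.4% of all genes. Between the 2 controls, 0 members and 2.98% of all genes differed by that much.

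**Figure D1:**
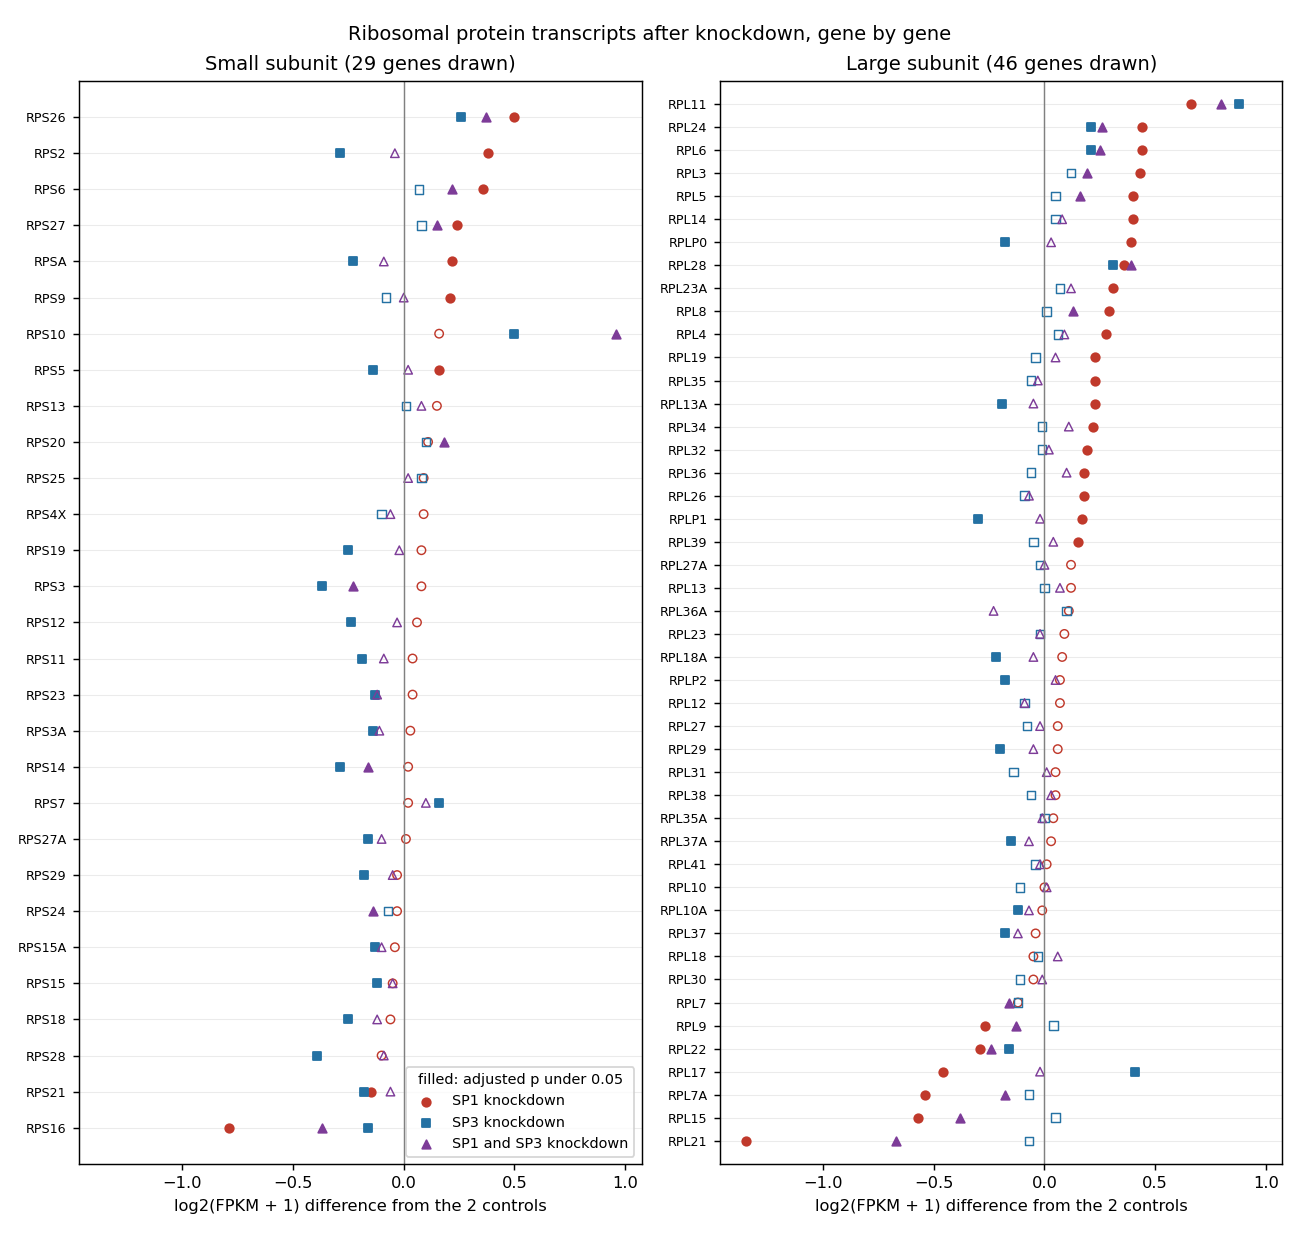
Log2(FPKM + 1) difference of each of 75 members from the mean of the 2 controls (horizontal axis), by subunit and in order of the SP1 knockdown difference; circles are SP1 knockdown, squares SP3 knockdown and triangles SP1 and SP3 knockdown, filled where the limma adjusted p was under 0.05. RPL21 lies farthest to the left at −1.35 with SP1 knocked down, while RPL11 lies to the right in all 3 comparisons (0.66, 0.88 and 0.80).

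RPL21, a large subunit protein, had 620.0 FPKM with SP1 knocked down, 1511 FPKM with SP3 knocked down and 995 FPKM with both, against 1583 and 1587 FPKM in the controls. The SP1 knockdown difference was −1.35 ± 0.05 (SE, limma adjusted p = 1.85e-11), or 39.1% of control. Both libraries that received the SP1 siRNA lay well below the controls, and the library with SP3 alone lay near them. RPS16, whose tail reaches the transfer RNA in the small subunit head, had 829 FPKM with SP1 knocked down, 1282 FPKM with SP3 knocked down and 1110 FPKM with both, against 1402 and 1464 FPKM in the controls (SP1 knockdown difference −0.79 ± 0.05, adjusted p = 7.01e-09). RPL15 had 130 FPKM with SP1 knocked down, 201 FPKM with SP3 knocked down and 148 FPKM with both, against 194 FPKM in each control (−0.57 ± 0.06, adjusted p = 3.71e-07). RPL7A had 1600 FPKM with SP1 knocked down, 2225 FPKM with SP3 knocked down and 2052 FPKM with both, against 2313 and 2353 FPKM in the controls (−0.54 ± 0.05, adjusted p = 2.95e-07). In each of these the SP1 library was the lowest of the 5 and the library with both siRNAs came next. RPL22 was at −0.29, RPL9 at −0.27 and RPS21 at −0.15, and RPL17 was also lower.

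RPL11, which carries 5S ribosomal RNA into the large subunit, had 1038 FPKM with SP1 knocked down, 1210 FPKM with SP3 knocked down and 1146 FPKM with both, against 643 and 674 FPKM in the controls. The SP1 knockdown difference was 0.66 ± 0.05 (limma adjusted p = 5.83e-08), and all 3 knockdown libraries lay above both controls. RPS26, which touches the message at its exit from the small subunit, had 314 FPKM with SP1 knocked down, 266 FPKM with SP3 knocked down and 287 FPKM with both, against 224 and 219 FPKM in the controls (0.50 ± 0.05, adjusted p = 1.26e-06). RPL6 had 558, 475 and 489 FPKM in the same order, against 413 and 411 FPKM in the controls (0.44 ± 0.05, adjusted p = 3.67e-06). For these 3 genes every knockdown library lay above both controls. They were named as the highest with SP1 knocked down, and the share of all genes lying so was not counted.

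RPL24, which forms a bridge between the subunits, was higher by 0.44 ± 0.06 with SP1 knocked down. RPL3, next to the peptidyl transferase centre, had 3016 FPKM with SP1 knocked down, 2428 FPKM with SP3 knocked down and 2546 FPKM with both, against 2236 and 2242 FPKM in the controls (0.43 ± 0.05, limma adjusted p = 3.44e-06). RPL14 was higher by 0.40, RPL5, the partner of RPL11 on 5S RNA, by 0.40, RPLP0 by 0.39, RPS2 by 0.38, RPL28 by 0.36 and RPS6, the substrate of the S6 kinases, by 0.36. Over all genes 36.5% were higher and 28.8% lower. By role, 6 of 9 proteins of the exit tunnel and its rim were higher and 2 lower (median 0.18). Among the higher ones were RPL4 at 0.28 and RPL23A at 0.31. With no trend in the variance these alone of the tunnel list stayed higher, and RPL17 and RPL22 stayed lower. Of 14 small subunit head proteins, 2 were higher and 1 lower (median 0.07). Of the small subunit as a whole, 8 were higher and 3 lower of 31 (25.8% and 9.68%). Of the large subunit they were 20 and 6 of 46 (43.5% and 13.0%).

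**Figure D2:**
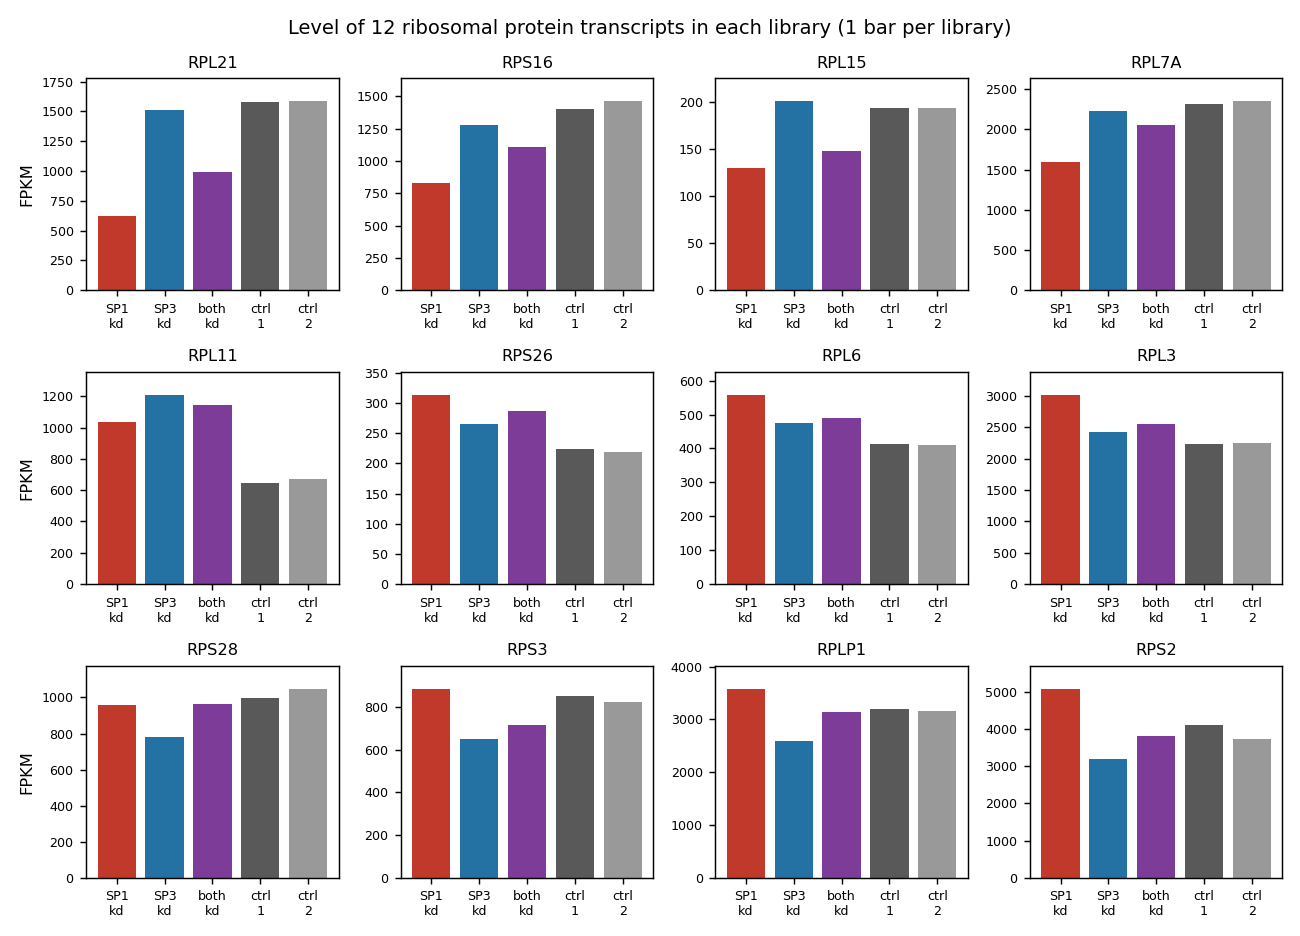
FPKM of 12 members (vertical axes, each from 0) in each library, 1 bar per library, in the order SP1 knockdown, SP3 knockdown, both, control 1 and control 2. The top row holds members that are lowest in the SP1 library, the middle row members that are higher than both controls in every knockdown library, and the bottom row members that are lowest in the SP3 library.

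In these comparisons each knockdown is 1 library, assumed to vary like the 2 controls, so the p-values measure only the spread between those samples, which may be technical, and no knockdown value has a replicate check. In an additive limma model, the departure of the double knockdown from the sum counts as spread. There RPL21 (−1.03, adjusted p = 0.0419) and RPL15 (−0.51, adjusted p = 0.0448) alone of the 77 passed for SP1. Calls were few over all 11728 genes as well in that model, at 432 higher and 468 lower. With no filter on low values RPL21, RPL15, RPL28, RPL6 and RPS26 passed. With no trend in the variance 15 members were higher and 8 lower, and 4130 and 3253 of all 11728 genes.

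The comparison of SP3 knockdown with control asks the same of SP3. RPS28 and RPS3 were the lowest below the controls, and RPL11 the highest above them. By limma, 8 of 77 members were higher, beside 29.6% of all genes, and 29 were lower, beside 32.1% of all genes. With no trend in the variance the counts were 5 higher and 7 lower of the members, and 3281 and 3648 of all 11728 genes. The calls lower make up 37.7% of the list, and the median member differed by −0.07, against −0.02 over all genes. Differences were small: 59 of 77 members (76.6%) lay within 0.2 of the controls, as did 32.5% of all genes tested. At least 25% higher than each control were 2 members, RPL11 and RPS10, beside 21.0% of all genes, and at least 20% lower were 2, RPS28 and RPS3, beside 24.3% of all genes. Set against control 1 alone, without control 2, 4 members were at least 25% higher.

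Of the small subunit, 19 of 31 members were lower with SP3 knocked down and 3 higher (median −0.14). Of the large subunit, 10 of 46 were lower and 5 higher (median −0.05). Over all genes 32.1% were lower and 29.6% higher. With no trend in the variance, RPS2, RPS3, RPS14, RPS18, RPS19 and RPS28 alone of the small subunit were still called lower. With no filter on low values none was. The difference between the subunits was not tested. Summed FPKM of the small subunit over that of the large subunit was 0.668 with SP1 knocked down, 0.65 with SP3 knocked down and 0.665 with both, against 0.687 and 0.688 in the controls. The ratio was thus lower than in both controls in all 3 knockdown libraries. The small subunit sum was 44818, 38636 and 41250 FPKM in the same order, against 42433 and 42722 FPKM in the controls. The large subunit sum was 67062, 59477 and 62058 FPKM, against 61793 and 62117 FPKM. With SP1 knocked down both sums were therefore above the controls. In the small subunit head 10 of 14 were lower and 1 higher (median −0.16), beside 32.1% and 29.6% of all genes.

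RPS28, which binds near the exit site of the small subunit, had 958 FPKM with SP1 knocked down, 781 FPKM with SP3 knocked down and 964 FPKM with both, against 998 and 1049 FPKM in the controls. Its SP3 knockdown difference was −0.39 ± 0.05 (limma adjusted p = 1.71e-05), and the SP3 library stood apart below the other 4. RPS3, at the entry of the message channel, had 885 FPKM with SP1 knocked down, 647 FPKM with SP3 knocked down and 714 FPKM with both, against 851 and 823 FPKM in the controls (−0.37 ± 0.05, adjusted p = 2.36e-05). RPS14 was at −0.29 ± 0.05, RPS2 at −0.29 ± 0.06 and RPS19, the gene most often mutated in Diamond-Blackfan anaemia, at −0.25 ± 0.05. RPS18, the most abundant member in the controls, had 4670 FPKM with SP1 knocked down, 4094 FPKM with SP3 knocked down and 4473 FPKM with both, against 4805 and 4914 FPKM in the controls (SP3 knockdown difference −0.25 ± 0.05, adjusted p = 0.000785).

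The P stalk recruits translation factors to the large subunit. All 3 of its members were lower with SP3 knocked down, beside 32.1% of all genes. With no trend in the variance RPLP1 alone of the 3 was still called. In the additive model or with no filter on low values none was. RPLP1 had 3584 FPKM with SP1 knocked down, 2588 FPKM with SP3 knocked down and 3137 FPKM with both, against 3191 and 3168 FPKM in the controls (SP3 knockdown difference −0.30 ± 0.05, limma adjusted p = 0.000148). RPLP0, the base of the stalk, had 3446 FPKM with SP1 knocked down, 2320 FPKM with SP3 knocked down and 2691 FPKM with both, against 2679 and 2580 FPKM in the controls (−0.18 ± 0.05, adjusted p = 0.00827). RPLP2 was also at −0.18 (adjusted p = 0.00615). With SP1 knocked down RPLP0 and RPLP1 were instead higher, at 0.39 and 0.17, and RPLP2 did not pass at 0.07 (adjusted p = 0.234).

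RPL11 was the member highest above control with SP3 knocked down, at 0.88 ± 0.05 (limma adjusted p = 3.1e-09), or 184% of control. RPL28 was at 0.31 ± 0.06, RPS26 at 0.26, RPL24 at 0.21, RPL6 at 0.21 and RPS7, another member reported to bind MDM2, at 0.16. RPL5, which shares the 5S particle with RPL11, did not pass at 0.05 (adjusted p = 0.401). In the additive model RPS2 (−0.34, adjusted p = 0.0419), RPS3 (−0.34, adjusted p = 0.0436) and RPS10 (0.63, adjusted p = 0.0365) alone passed for SP3. Over all 11728 genes that model called 785 higher and 1020 lower. With no filter on low values 0 members passed by limma (10 at an unadjusted p under 0.05).

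With both factors lowered, RPL11 and RPS10 stood highest above the controls and RPL21 lowest. By limma, 12 of 77 members were higher, beside 31.9% of all genes, and 11 were lower, beside 31.1% of all genes. With the libraries rescaled by median-of-ratios factors the split was 6 higher and 11 lower, beside 3039 and 3741 of all 11723 genes tested. The median member differed by −0.02, against 0.01 over all genes, and 63 of 77 (81.8%) lay within 0.2 of the controls, as did 31.8% of all genes tested. At least 25% higher than each control were RPL11, RPL28, RPS10 and RPS26, 4 in all beside 23.0% of all genes, and at least 20% lower were RPL15, RPL21 and RPS16, 3 in all beside 23.4% of all genes.

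RPL21, RPL15, RPS16 and RPL22 were lower with both siRNAs, as they were with SP1 knocked down. RPL21 was at −0.67 ± 0.05 (limma adjusted p = 3.18e-08), RPL15 at −0.38 ± 0.06, RPS16 at −0.37 ± 0.05 and RPL22 at −0.24. RPS3 was at −0.23 (adjusted p = 0.0016), and with SP1 knocked down it had not passed at 0.08. RPL11 was at 0.80 ± 0.05 (adjusted p = 7.86e-09), RPL28 at 0.39, RPS26 at 0.37, RPL24 at 0.26 and RPL6 at 0.25. The 3 stalk genes lay between −0.02 and 0.05, and none passed. In the additive model, where this fitted difference is the sum of both effects, RPS10 alone passed (0.92, adjusted p = 0.0323). Over all 11728 genes that model called 935 higher and 1038 lower. With no filter on low values RPL15 and RPL28 passed. With no trend in the variance 6 members were higher and 5 lower, and 3520 and 3510 of all 11728 genes.

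**Figure D3:**
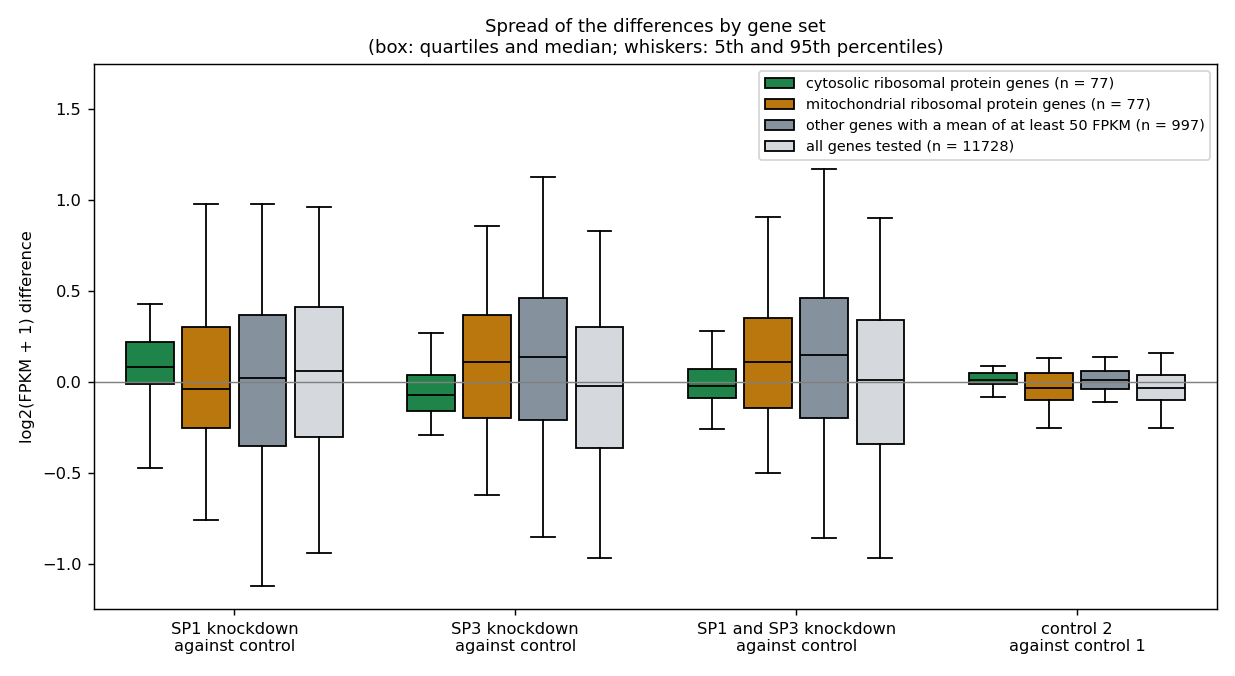
Log2(FPKM + 1) differences (vertical axis) in the 3 comparisons with control and between the 2 controls, for 77 cytosolic ribosomal protein genes, 77 mitochondrial ones, 997 other genes that averaged 50 FPKM or more and all 11728 genes tested; boxes show the quartiles and median, whiskers the 5th and 95th percentiles. The cytosolic ribosomal protein genes have the narrowest boxes in each comparison, with an SD of 0.291, 0.193 and 0.215 in the 3 knockdowns and 0.0666 between the controls.

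The SD of the differences over the 77 members was 0.291 with SP1 knocked down, 0.193 with SP3 knocked down and 0.215 with both, against 0.0666 between the 2 controls. Over all genes tested the SD was 0.59, 0.553 and 0.576, against 0.133. Mitochondrial ribosomal proteins, which build a separate ribosome inside mitochondria, had SDs of 0.537, 0.446 and 0.46, against 0.116. Of 77 mitochondrial genes tested, limma called 21 higher and 25 lower with SP1 knocked down, 33 and 20 with SP3 knocked down, and 29 and 17 with both. These are 27.3% and 32.5% with SP1 knocked down (36.5% and 28.8% of all genes), 42.9% and 26.0% with SP3 knocked down (29.6% and 32.1%), and 37.7% and 22.1% with both (31.9% and 31.1%).

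Setting SP3 knockdown directly against SP1 knockdown gave the most calls of the 7 comparisons among members, with no control in the difference itself. By limma, 9 of 77 members were higher in the SP3 library, beside 26.5% of all genes, and 43 were lower, beside 36.2% of all genes. The median member differed by −0.17, against −0.09 over all genes. RPS2 differed by −0.66 ± 0.07 (adjusted p = 9.3e-07), RPLP0 by −0.57 ± 0.06 (adjusted p = 1.3e-06), RPLP1 by −0.47, RPS3 by −0.45 and RPSA, a small subunit protein also known as the laminin receptor, by −0.45. RPSA had 1481 FPKM with SP3 knocked down and 2023 FPKM with SP1 knocked down, on either side of the controls at 1752 and 1732 FPKM. In the other direction RPL21 differed by 1.28 ± 0.06 (adjusted p = 1.99e-10), RPL17 by 0.87 ± 0.10, RPL15 and RPS16 by 0.63 each, and RPL7A by 0.48. With no filter on low values, 2 members were higher by limma (RPL15 and RPL21) and 0 lower, where 6 and 9 had an unadjusted p under 0.05.

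When the SP3 siRNA was added to the SP1 siRNA, the double knockdown compared with SP1 knockdown gave 6 members higher, beside 21.0% of all genes, and 23 lower, beside 26.4% of all genes (median −0.10, against −0.05 over all genes). RPL21 was higher by 0.68 ± 0.06 (limma adjusted p = 4.2e-07) and RPS16 by 0.42 ± 0.06, while RPS2 was at −0.41 ± 0.07, RPLP0 at −0.36 ± 0.06, RPL14 at −0.32 and RPS3 at −0.31. When the SP1 siRNA was added to the SP3 siRNA, the double knockdown compared with SP3 knockdown gave 9 higher, beside 17.9% of all genes, and 4 lower, beside 15.1% of all genes (median 0.07, against 0.03). The 3 stalk genes were higher by 0.21 to 0.28, RPS28 by 0.30 ± 0.06 and RPS2 by 0.25, and the 4 lower ones were RPL21 (−0.60), RPL15 (−0.44), RPL17 (−0.43) and RPS16 (−0.21). With median-of-ratios scaling the split was 4 higher and 12 lower against SP1 knockdown, and 1 higher and 2 lower against SP3 knockdown. With no filter on low values limma called 0 members in either comparison, where 8 against SP1 knockdown and 3 against SP3 knockdown had an unadjusted p under 0.05.

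The interaction asks whether the double difference departs from the sum of the single differences. By limma, 6 of 77 members departed upwards, beside 18.5% of all genes, and 10 downwards, beside 21.0% of all genes. The median was −0.02, against −0.03 over all genes. With median-of-ratios scaling it turned to 0.01, against −0.01 over all genes. The split was then 4 upwards and 4 downwards, beside 1823 and 1642 of all 11723 genes tested. For RPL21 the single differences were −1.35 and −0.07, and the double difference of −0.67 lay 0.75 ± 0.08 above their sum (adjusted p = 3.93e-06). For RPL11 they were 0.66 and 0.88, and the double difference of 0.80 lay below their sum (interaction −0.73 ± 0.08, adjusted p = 7.45e-06). RPS16 departed by 0.58, RPL7A by 0.43 and RPS28 by 0.40, and RPL6 by −0.40 and RPS26 by −0.39. In each of the 16, the double difference was closer to 0 than the sum of the single ones. The controls are subtracted in each single difference, and so weigh more in their sum than in the double difference. An offset of the controls from all the knockdown libraries would alone give this pattern. Its part was not tested, and the share of all genes with the pattern was not counted. By limma with no filter on low values, 0 members passed (9 at an unadjusted p under 0.05).

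**Figure D4:**
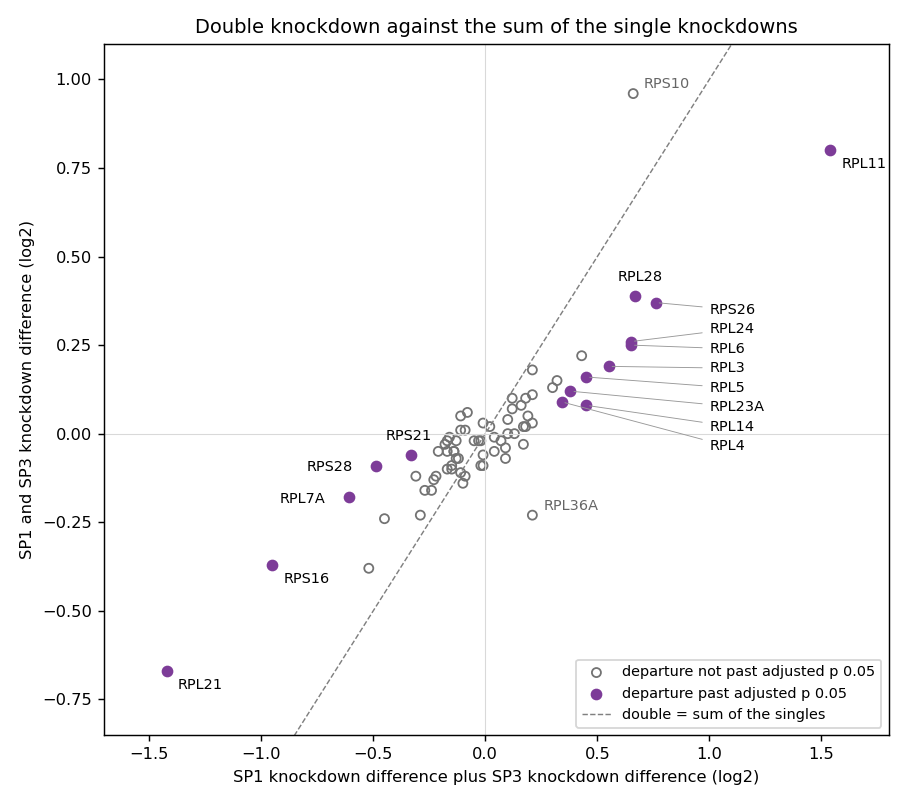
Double knockdown difference (vertical axis) against the sum of the 2 single knockdown differences (horizontal axis), both log2, 1 point for each of 75 members; the dashed line marks equality and filled points have an interaction past an adjusted p of 0.05. The 15 filled points lie on the side of the line nearer to a double difference of 0, with RPL11 (interaction −0.73) and RPL21 (0.75) farthest from it. An offset of the controls from all the knockdown libraries would alone place points on that side.

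RPS10, RPL36A and RPL17 stood far below the other members, at 1.92, 2.71 and 15.8 FPKM with SP1 knocked down. RPS10, a small subunit head protein, had 26 reads with SP1 knocked down, 38 with SP3 knocked down and 53 with both, against 23 and 22 reads in the controls. Per counted read of the library the ratio to control was 1.19 with SP1 knocked down (95% interval 0.704 to 1.97), 1.67 with SP3 knocked down (1.06 to 2.63) and 2.53 with both (1.67 to 3.86). RPL36A had 121, 125 and 83 reads in the same order, against 127 and 99, and all 3 ratio intervals include 1. RPL17, which lines the exit tunnel, had 305 reads with SP1 knocked down, 595 with SP3 knocked down and 401 with both, against 405 and 473 in the controls. Its ratio was 0.715 (0.625 to 0.815) with SP1 knocked down and 1.34 (1.21 to 1.49) with SP3 knocked down, with the controls between them. These intervals cover counting error only. Each of the 3 has a readthrough gene under another symbol in the same tables (RPS10-NUDT3, RPL36A-HNRNPH2 and RPL17-C18orf32), listed at 0 in all 5 libraries, and how reads shared by such overlapping genes were assigned was not tested. Reads can also be shared with the many processed pseudogenes of this family, so single levels are uncertain to that extent.

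The steadiest members over the 5 libraries were RPL41, RPL35A, RPS25, RPL38 and RPL18, whose log2 range was 0.06 to 0.12. RPL41, the smallest ribosomal protein, had 1526 FPKM with SP1 knocked down, 1473 FPKM with SP3 knocked down and 1488 FPKM with both, against 1540 and 1481 FPKM in the controls. Several members serve as reference genes in quantitative PCR. Of 8 such genes (RPLP0, RPL13A, RPS18, RPL32, RPL19, RPL37A, RPS13 and RPL27), 4 were higher and 0 lower with SP1 knocked down, 0 higher and 4 lower with SP3 knocked down, and none was called with both. Over all genes the shares higher and lower were 36.5% and 28.8% with SP1 knocked down, 29.6% and 32.1% with SP3 knocked down, and 31.9% and 31.1% with both. RPL13A had 3026 FPKM with SP1 knocked down, 2259 FPKM with SP3 knocked down and 2486 FPKM with both, against 2575 and 2589 FPKM in the controls. RPL27 had 1046, 954 and 991 FPKM in the same order, against 1019 and 994 FPKM, and passed in none of the 3. With SP1 knocked down RPL19 was at 0.23 and RPL32 at 0.19, and with SP3 knocked down RPL37A was at −0.15. RPS13 passed in none of the 3, and RPS27A, made as a fusion with ubiquitin, passed with SP3 knocked down at −0.16. With no trend in the variance, of the 8 reference genes RPLP0 alone passed for SP1 knockdown and RPS18 alone for SP3 knockdown. In the additive model or with no filter on low values none did.

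Over the 5 libraries, the members whose log2 levels were most like those of RPL11 were RPL28 (Pearson r = 0.962), RPS20 (0.877) and RPS26 (0.838). Those most like RPS16 were RPL7A (0.99), RPL21 (0.985) and RPL9 (0.946). With 5 libraries these values describe likeness only.

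A list of 10 members linked to Diamond-Blackfan anaemia, an inherited failure of red cell production, included RPS7, RPS19, RPS26, RPL5 and RPL11. With SP1 knocked down 5 were higher and 0 lower, beside 36.5% and 28.8% of all genes. With SP3 knocked down 4 were higher and 1 lower, beside 29.6% and 32.1%, and with both 4 and 1, beside 31.9% and 31.1%. RPS10, with 38 and 53 reads in these libraries, is 1 of the 4 each time. The list is not complete, and its counts depend on which members were put on it. RPL15, also linked to the disease, is not on it and was lower with SP1 knocked down (−0.57). RPS28, the lowest member with SP3 knocked down (−0.39), is not on it either. RPL11 and RPS26 were higher in all 3.

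Other genes of the same system were counted in the same way. Of 16 other messages with a 5′ TOP motif, mostly translation factors, 12 were higher and 2 lower with SP1 knocked down (median 0.33), 8 and 3 with SP3 knocked down (0.10), and 9 and 3 with both (0.15). Over all genes the shares higher and lower were 36.5% and 28.8% with SP1 knocked down, 29.6% and 32.1% with SP3 knocked down, and 31.9% and 31.1% with both. With SP3 knocked down their median of 0.10 and that of the 77 members, −0.07, had opposite signs, and the difference was not tested. EIF3F, a subunit of initiation factor eIF3, had 169 FPKM with SP1 knocked down, 178 FPKM with SP3 knocked down and 163 FPKM with both, against 88.4 and 86.3 FPKM in the controls. Of 9 genes listed for mTOR signalling and TOP control, 3 were higher and 5 lower with SP1 knocked down. The counts were 2 and 3 with SP3 knocked down, and 1 and 4 with both, all beside the same shares of all genes. The S6 kinase genes RPS6KB1 (−0.89) and RPS6KB2 (−1.17) were among the 5 lower with SP1 knocked down. MTOR had 2.38 FPKM with SP1 knocked down, 10.6 FPKM with SP3 knocked down and 3.92 FPKM with both, against 9.24 and 9.57 FPKM in the controls (SP1 knockdown difference −1.62 ± 0.10, limma adjusted p = 2.65e-09). LARP1 was at 0.58 ± 0.08 with SP1 knocked down (adjusted p = 1.2e-05).

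Beside RPL11 and RPL5, MDM2 had 10.5 FPKM with SP1 knocked down, 13.6 FPKM with SP3 knocked down and 10.6 FPKM with both, against 15.8 and 15.1 FPKM in the controls. Of 10 genes of the list of MDM2 and p53 targets, 4 were higher and 4 lower with SP1 knocked down, 3 and 4 with SP3 knocked down, and 3 and 7 with both, again beside those shares of all genes. Of the ribosomal genes outside the naming rule, FAU, which encodes RPS30, was at 0.14, 0.36 and 0.33 (SP1, SP3 and both) and passed in all 3. RACK1 was at 0.21 with SP1 knocked down and at −0.19 with SP3 knocked down. The paralogue RPL22L1 had 105 FPKM with SP1 knocked down, 126 FPKM with SP3 knocked down and 109 FPKM with both, against 61.5 and 64.3 FPKM in the controls (0.73, 0.99 and 0.79), while RPL22 itself was lower in all 3 at −0.29, −0.16 and −0.24.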

How the data were processed

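RNA sequencing of total RNA from HCT116 cells gave 5 libraries, grouped by the labels into SP1 knockdown, SP3 knockdown, both (1 library each) and control (2). The authors deposited FPKM values, 1 table a library. Tools named in the submitters' processing notes are HTSeq 0.9.1, HISAT2 2.0.5, Trimmomatic 0.36 and Cufflinks 2.2.1, without role or order. Genome build and annotation: not given in the sources used here. Strand handling is not stated either, so reads from antisense or overlapping genes may be mixed.

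Whole reads were recovered from the FPKM steps for all 77 members (tolerance 0.02 reads) and served for depth and counting intervals only. An implied length may be off by a whole factor. Differences were tested in R 4.3.3 by limma 3.58.1, with a mean-variance trend and 1 mean per group, on log2(FPKM + 1). The fit took the 11728 genes that reached 1 FPKM in any library, of which all 77 members were part, with Benjamini-Hochberg adjustment over all of them and a threshold of 0.05. Differences on this scale understate changes of low genes. The fit was tested on simulated data. A count without a test took members at least 25% above or 20% below each control. The labels do not say whether the controls were separate cultures.

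Named members were the 6 highest and 6 lowest in each comparison with control, the 3 highest and lowest in the interaction and between the single knockdowns, the 5 steadiest, the 5 highest and 5 lowest by mean FPKM, and members fixed by role. Others were named after their values were seen, as were the non-members. The members and lists were chosen with earlier results of these data known. The alternatives were a pseudocount of 0.1 FPKM, a mean of at least 5 FPKM, no filter, median-of-ratios scaling, no trend, an additive model and each control left out. Promoters came from RefSeq on GRCh38.p14, which may not be the build of the tables, and no protein sequence was used here. Some single-gene results are not reported here, while counts and medians cover all members.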

Additional observations from a re-analysis of the deposited data

Results flagged for a closer look

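For 15 of the members described here the effect of 1 siRNA differed with and without the other by limma's interaction term (adjusted p under 0.05). Such departures were rarer among members than over all genes. Of the 77 members 7.79% departed above the sum and 13.0% below it, beside 18.5% and 21.0% of all genes tested. Departures below the sum of the single differences were −0.73 for RPL11, −0.40 for RPL6, −0.39 for RPS26, −0.38 for RPL24, −0.37 for RPL14, −0.36 for RPL3, −0.29 for RPL5, −0.28 for RPL28, −0.26 for RPL23A and −0.25 for RPL4. Departures above it were 0.27 for RPS21, 0.40 for RPS28, 0.43 for RPL7A, 0.58 for RPS16 and 0.75 for RPL21. Of the first set 9 are large subunit genes and 1, RPS26, is of the small subunit. Of the second set 3 are small subunit genes and 2 large. The large subunit holds 46 of the 77 members, and the split was not tested. With no trend, RPL11, RPL21, RPL7A and RPS16 passed, beside 1792 departures above and 2090 below over all 11728 genes. With no filter on low values 0 members passed. The controls enter each of these values, and leukocyte markers summed to 0.699 to 1.4 FPKM in the knockdown libraries, against 22.9 and 23.0 FPKM in the controls. The part of that difference in these departures was not tested.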

How the results depend on the processing

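A pseudocount of 0.1 FPKM left each count of calls within 1.5 times its value. No paired analysis was possible because the controls are numbered 1 and 2 and each knockdown has 1 library.

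With no filter on low values, which adds genes near 0 to the spread shared across genes, calls among the 77 members fell to 3 higher and 2 lower for SP1 knockdown, 0 and 0 for SP3 knockdown, 1 and 1 for both, 2 and 0 for SP3 against SP1 knockdown, and 0 and 0 in the other comparisons and the interaction. Calls over all 20030 genes were few as well in that fit, at 1676 higher and 1019 lower for SP1 knockdown, 703 and 591 for SP3 knockdown and 1119 and 811 for both. With no trend the calls among members were 15 higher for SP1 knockdown, 5 and 7 for SP3 knockdown and 6 and 5 for both. They were 20 lower for SP3 against SP1 knockdown, 5 lower for both against SP1 knockdown, 1 higher for both against SP3 knockdown, and 3 and 1 in the interaction. Over all 11728 genes the fit with no trend called 4130 higher and 3253 lower for SP1 knockdown, 3281 and 3648 for SP3 knockdown and 3520 and 3510 for both. At an unadjusted p under 0.05, 16 members passed for SP1 knockdown and 10 for SP3 knockdown with no filter. Calls among members in the additive model were 0 and 2 for SP1, 1 and 2 for SP3, and 1 and 0 for both. Over all 11728 genes that model called 432 and 468 for SP1, 785 and 1020 for SP3, and 935 and 1038 for both. In it RPS16 under SP3 turned to 0.09 (not past the threshold), with the rest of its alternatives below 0. The cause was not tested.

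Median-of-ratios scaling gave 5 higher for SP3 knockdown, 6 higher for both, 12 lower for both against SP1 knockdown, 1 higher and 2 lower for both against SP3 knockdown and 4 lower in the interaction. It moved the members' medians to 0.05 for SP1 knockdown, −0.13 for SP3 knockdown, −0.08 for both, −0.21 for SP3 against SP1 knockdown, −0.14 for both against SP1 knockdown and 0.01 for the interaction. The scaling acts on every gene of a library, and the medians over all genes were then 0.04, −0.07, −0.04, −0.12, −0.08 and −0.01 in the same order. A mean of at least 5 FPKM gave 15 higher for both against SP3 knockdown and a median of −0.08 for SP3 knockdown. The additive model gave medians of 0.09 for SP1 and −0.08 for SP3.

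Without either control, medians ranged from −0.08 to −0.08 for SP3 knockdown and from −0.01 to −0.01 for both, and the count at least 25% higher with SP3 knocked down ranged from 2 to 4. Without the 20 other most abundant genes, the members' share of FPKM was 31.9% with SP1 knocked down, 28.2% with SP3 knocked down and 29.3% with both, against 30.5% and 30.6% in the controls. Depth limits RPS10, RPL36A and RPL17 most.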
